A study of Drosophila melanogaster with 3 samples.

Results

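The genes CycA, CycB, CycB3, CycD, CycE, Cdk1, stg, fzr, fzy and E2f1 run and time the cell cycle of the fly, and the data show where the Hox protein Antp, fused to eGFP, lay on chromatin around them. The 10 genes were given by name, out of 13968 protein-coding genes on the main chromosome arms, and a peak was counted for a gene when its summit lay in the gene's span or within 1 kb of it. Of the 4351 peaks that passed the authors' filter on agreement between replicates (the irreproducible discovery rate, IDR), 13 met this rule. These 4351 are the strongest entries of the list pooled over the replicates, so a single peak need not be present in every replicate. The study is a ChIP-seq experiment on whole Drosophila melanogaster embryos, 0 to 24 h old and of both sexes, from a line (AntP-MiMIC-GFP) in which an eGFP exon inserted into an intron of Antp makes a fusion protein. There was 1 group, Antp-eGFP embryos pulled down with an anti-GFP antibody (a second label names Antp), with 3 biological replicates from the same line, so no groups were compared and no test was made. A whole embryo mixes every cell type, so a peak in few cells and a weak peak in many cells cannot be told apart. The fusion is driven by the Antp locus itself. No untagged or mock immunoprecipitation was analysed here, and what part of a peak depends on the fusion protein was not tested. The files hold no read counts, so the depth is unknown.

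Progress through the cell cycle is driven by cyclin-dependent kinases, which act only when bound to a cyclin. CycA, CycB and CycB3 partner Cdk1 at mitosis, CycE opens S phase and CycD promotes growth and G1 progression. The phosphatase String (stg, the fly Cdc25) removes the inhibitory phosphates from Cdk1, and its transcription sets the time of the zygotic mitoses in the embryo. Fizzy (fzy, Cdc20) and Fizzy-related (fzr, Cdh1) activate the anaphase-promoting complex (APC/C), which marks mitotic cyclins for destruction, and the transcription factor E2f1 turns on S-phase genes.

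The sequences under 5 of the 13 summits are printed here because they hold the motif matches that the results return to. Each is read 5' to 3' on the strand of its gene, from the RefSeq copy of the dm6 genome (release 6), around the summit of the peak. Each reaches 100 bases to either side of the summit, except at CycA, where the window was shortened to 142 bases so that at most 30 bases of untranslated region remain. Capitals mark matches, on either strand, to the DRE (TATCGATA), to the core CGATA, to the CHR element (TTTGAA) or to the Hox core, for which TAATTA was searched, and also TAATTG, and also TAATGA, and also TAATGG.
CycA promoter, chr3L:11833549-11833690, minus strand: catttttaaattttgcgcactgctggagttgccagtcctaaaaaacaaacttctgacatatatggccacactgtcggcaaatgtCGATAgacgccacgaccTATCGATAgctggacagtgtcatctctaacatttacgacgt
Cdk1 promoter, chr2L:10386332-10386532, minus strand: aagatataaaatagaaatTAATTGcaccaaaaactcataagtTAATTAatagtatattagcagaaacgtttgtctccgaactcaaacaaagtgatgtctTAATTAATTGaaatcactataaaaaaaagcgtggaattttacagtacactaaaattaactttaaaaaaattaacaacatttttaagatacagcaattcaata
CycE intron, chr2L:15747181-15747381, minus strand: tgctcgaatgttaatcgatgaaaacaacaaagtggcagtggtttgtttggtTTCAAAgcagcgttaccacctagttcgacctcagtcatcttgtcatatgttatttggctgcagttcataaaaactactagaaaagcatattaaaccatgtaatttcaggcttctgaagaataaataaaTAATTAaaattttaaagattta
fzr 3-prime flank, chrX:4666897-4667097, minus strand: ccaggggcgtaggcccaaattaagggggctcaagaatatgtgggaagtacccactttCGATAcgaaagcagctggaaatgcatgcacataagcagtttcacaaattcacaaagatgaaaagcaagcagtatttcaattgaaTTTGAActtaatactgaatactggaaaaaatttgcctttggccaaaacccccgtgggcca
E2f1 intron, chr3R:21641694-21641894, minus strand: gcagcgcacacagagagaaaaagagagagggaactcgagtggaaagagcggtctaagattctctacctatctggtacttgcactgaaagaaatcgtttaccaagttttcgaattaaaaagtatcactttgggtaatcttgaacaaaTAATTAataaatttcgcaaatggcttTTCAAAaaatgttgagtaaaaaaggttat

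At CycA the DRE, the site of the promoter factor DREF, lay 4 to 11 bp upstream of the transcription start site (TSS), and its centre was 4 bp from the summit. At Cdk1 there were 4 Hox core matches, 2 of them overlapping, and the centre of the nearest was 1 bp from the summit. At the fzr flank the matches were 1 CGATA core and 1 CHR, 41 and 43 bp from the summit on opposite sides.

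Peaks were found at 8 of the 10 genes, and most of them were weak. By the IDR list, CycA, CycB, CycD, CycE, Cdk1, stg, fzr and E2f1 held at least 1 summit. They were 80.0% of the members (exact binomial interval 44.4 to 97.5%, counting error only), while 30.0% of all protein-coding genes held one. The members were chosen with earlier results of these data known, so the interval is no test against that share. Long genes held summits more often, 50.1% of the longest of 5 classes of coding genes by span and 12.9% of the shortest, and the members' median span was 3702 bp, where that of all coding genes was 2164 bp. With coding genes split into these 5 equal classes and each member given the share of its class, 3.98 of 10 would hold a summit. CycB3 and fzy had none, not even with the span extended by 5 kb. The strongest entry of the 8 genes had a median signal of 149, which was below the median of 202 over the 4186 coding genes with a peak. Signal is the strength that the authors' peak caller gave to each peak, and it is compared only within a list. Of the 13 summits 10 were in the weaker part of the IDR list, past rank 2175. Counting only the strongest 2175 peaks left CycB, fzr and E2f1, 3 of 10 members (30.0%), where 17.9% of coding genes held one.

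**Figure D1:**
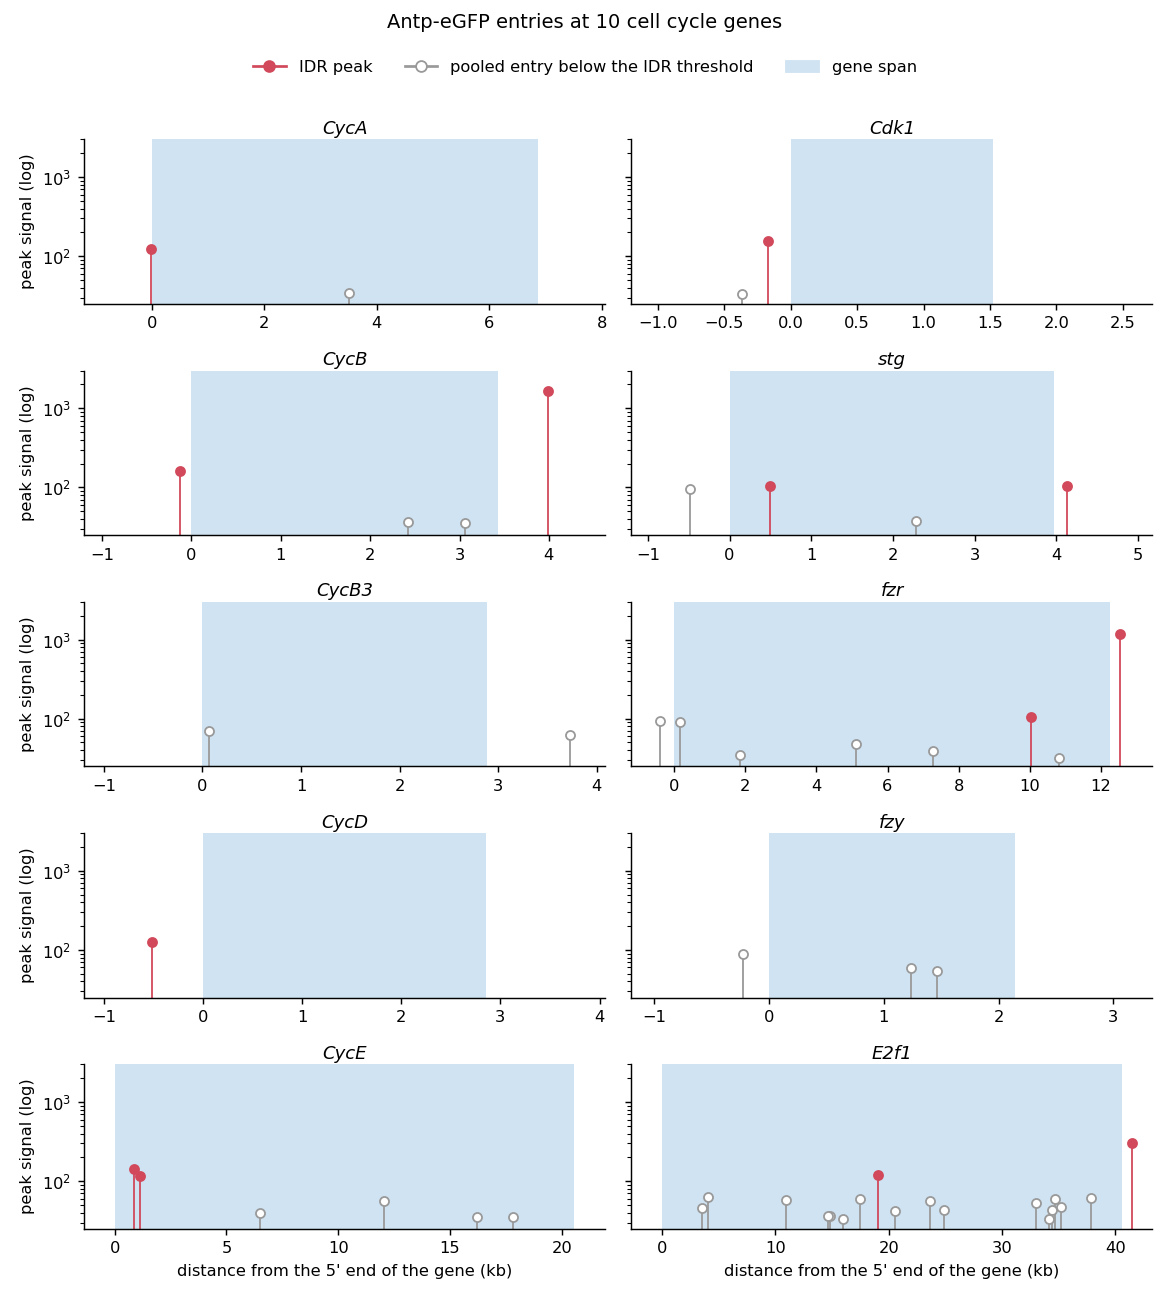
Entries of the pooled list at the 10 genes, by distance from the 5' end of the gene in kb (horizontal) and peak signal on a log scale (vertical). Red points are the 13 IDR peaks, open grey points the 37 entries below the IDR threshold, and the blue band is the gene span. The tallest points, at CycB and fzr, stand to the right of the band, beyond the 3' end of the gene. That at fzr is also 297 bp from the TSS of the neighbouring gene CG3009.

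The 2 strong peaks stood outside the genes, beyond their 3' ends. That of CycB was the 31st strongest of the IDR list, with a signal of 1665, and that of fzr the 57th, with a signal of 1166. No other summit of the set was among the strongest 100. The fzr summit was also 297 bp from the TSS of its neighbour CG3009. Of the strongest 100 IDR peaks, 68 lay within 500 bp of some TSS. The next strongest of the set, an E2f1 peak with a signal of 307 and rank 914, also lay beyond the 3' end, within 500 bp of the TSS of InR. Of all 13 summits, 4 were beyond the 3' end, 4 upstream of the 5' end and 5 inside the span. The same shares over all IDR summits are not given, so these counts show no preference for 3' ends. With the extension of 1 kb left out, 4 of 10 genes remained, with 5 summits, where 11.8% of coding genes held one inside their span.

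The promoters of the members carried only modest peaks. An IDR summit lay within 500 bp of the gene's own TSS at CycA, CycB, CycE, Cdk1 and stg, 5 of 10 members, where 20.8% of coding genes had one. Their signals ran from 105 to 163. The CycD summit missed this limit by a little, at 516 bp. Assigned to the nearest TSS of any gene, 8 of the 13 summits fell to a member, and 6 members were named: CycA, CycB, CycD, CycE, Cdk1 and stg. Of all coding genes, 20.5% were the nearest to some summit. The other 5 summits were nearest to CG3009 (both of fzr), InR and lncRNA:CR46056 (both of E2f1) and SP1029 (1 of stg).

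Among the mitotic cyclins CycB (FBgn0000405, chr2R:22803521-22806948, minus strand) stood out. Its strongest peak had its summit on arm 2R at 22802962, 559 bp beyond the 3' end, in the gap of 1340 bp between CycB and blw, which are transcribed toward each other. The signal there was 555, 578 and 538 in replicates 1, 2 and 3, and the rank 24, 33 and 37 (31.3 ± 6.66, SD, n = 3). In every replicate it was among the strongest 37 of 30000 entries. The nearest TSS was that of CycB, 3341 bp away. Of the 100 strongest IDR peaks only 4, this one included, were over 3000 bp from any TSS, while 20.0% of all 4351 were. Neither limit was planned, and this peak's own rank and distance fall within both. The count is therefore a description and no evidence that such a peak is rare. The CycB promoter had a separate peak 127 bp upstream of the 5' end, 4113 bp from the first. This promoter peak lay in the 911 bp between CycB and the divergent gene stl. Its signal was 39.8, 63.6 and 61.3 in the replicates, and in the pooled list the peak beyond the 3' end was 10.2 times as strong.

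CycA (FBgn0000404, chr3L:11826719-11833578, minus strand), the cyclin that acts in S phase and in mitosis, had a single summit (3L, position 11833590), 12 bp upstream of its only TSS, in the stretch shown with the DRE. Its signal was 26.3, 52.7 and 42.7 in replicates 1, 2 and 3, with ranks of 7173, 2587 and 3898. By rank replicate 1 was the low one, and there the entry ranked past the strongest 4351. CycB3 (FBgn0015625, chr3R:24867934-24870816, minus strand), the cyclin that promotes anaphase, had no IDR peak. Its best pooled entry was 63 bp inside the gene at rank 7384, with a signal of 69.8, and the matched replicate entries ranked 27441, 6355 and 6432.

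Cdk1 (FBgn0004106, chr2L:10384739-10386262, minus strand), the mitotic kinase, and stg (FBgn0003525, chr3R:29251826-29255800, minus strand), the phosphatase that activates it, each had a promoter peak of low rank. The Cdk1 summit (2L, position 10386432) lay 170 bp upstream of the TSS, in the 399 bp between Cdk1 and the divergent gene mRpS7, which encodes a mitochondrial ribosomal protein. Its signal was 36.4, 64.7 and 46.0 in replicates 1, 2 and 3, and its rank was 3130 ± 1094 (SD, n = 3), within the strongest 4351 of all 3. The replicate 3 summit was at the same base, while those of replicates 1 and 2 lay 54 and 50 bp further from Cdk1, where the mRpS7 TSS was the nearer of the pair. The only other pooled entry at the gene, 371 bp upstream and 29 bp from the mRpS7 TSS, had rank 28545.

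At stg 2 summits only just passed the IDR threshold, at ranks 4296 and 4321 of 4351. The first lay 16 bp downstream of the inner stg TSS, with a signal of 27.6, 28.6 and 45.1 in the replicates. The second was 154 bp beyond the 3' end, with signals of 38.1, 28.3 and 35.0. Replicate 3 placed the promoter entry among its strongest 4351 and replicate 1 the entry beyond the 3' end, and no replicate did so for both. A further stg entry, 480 bp upstream of the outer TSS and 205 bp from that of CG45544, fell just outside the threshold at rank 4759.

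The genes of G1 and S phase, CycD, CycE and E2f1, had 5 summits, all but 1 with signals from 117 to 142. CycD (FBgn0010315, chrX:15906822-15909676, minus strand) had its summit at position 15910192, with signals of 56.3, 43.9 and 30.3 in replicates 1, 2 and 3. It lay 516 bp upstream of CycD, in the 1193 bp between CycD and the divergent gene Lrp4. It was the only pooled entry at CycD. CycE (FBgn0010382, chr2L:15727581-15748150, minus strand) had a pair of summits 251 bp apart in the intron before an inner start site (2L, positions 15747030 and 15747281), 420 and 671 bp upstream of that TSS, with overlapping intervals. The replicates divided between them. The summit at 671 bp had signals of 37.2, 60.0 and 27.5, with ranks of 3848, 2121 and 8012, best in replicate 2. That at 420 bp had 17.9 in replicate 1 and 58.8 in replicate 3, with ranks of 16837 and 2422. It had no entry within 100 bp in replicate 2. It was the only one of the 13 summits without a match in all 3 replicates. Taken as 1 region, CycE was among the strongest 4351 entries of every replicate.

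E2f1 (FBgn0011766, chr3R:21620304-21660871, minus strand), the longest member at 40568 bp, held 18 pooled entries, of which 2 passed the IDR threshold. The stronger, on 3R at 21619422, lay beside the TSS of InR, the insulin receptor gene, and 882 bp beyond the 3' end of E2f1. Its signal was 70.3, 119 and 124 in replicates 1, 2 and 3. The other was intronic, at 21641794, 3300 bp upstream of the nearest E2f1 TSS, with signals of 37.1, 31.5 and 46.9. E2f1 has 5 annotated TSSs, and no pooled entry lay within 500 bp of any of them. Entries that remained below the threshold in E2f1 ranked from 8863 to 28928, 1 of them 447 bp from the start of the microRNA gene mir-11, which lies within E2f1.

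The APC/C activators fzr (FBgn0262699, chrX:4667290-4679537, minus strand) and fzy (FBgn0001086, chr2L:16310956-16313097, plus strand) both lie close to a neighbour, and only fzr had an IDR peak. The strong fzr peak (X, position 4666997) sat 293 bp beyond the 3' end of fzr and 297 bp from the TSS of CG3009, in the gap of 589 bp between the 2 genes, which lie in the same orientation. Its signal was 367, 393 and 413 in replicates 1, 2 and 3, and its rank 56, 63 and 60. The replicate summits in 1 and 2 were at the very same base as the pooled summit. A second fzr summit, inside an intron, passed the threshold at rank 4289, and the peak beyond the 3' end was 11.1 times as strong. At the fzr promoter itself entries 384 bp upstream and 170 bp downstream of the outer TSS had signals of 92.5 and 91.8 and ranks of 4976 and 5017, just outside the IDR list. The best entry of fzy, which triggers the onset of anaphase, lay in the 229 bp between fzy and the divergent gene cni. It was 6 bp from the cni TSS and 224 bp upstream of fzy, at rank 5241. The matched entry had a signal of 20.2, 37.7 and 32.2 in the replicates, and only in replicate 2 did it rank within the strongest 4351.

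The replicates differed in which of the weaker members they placed among their strongest entries. The strongest 4351 of the 30000 entries of each replicate, as many as the IDR list holds, marked 7, 8 and 8 members (7.67 ± 0.577, SD, n = 3), where the same rule marked 29.5%, 30.0% and 29.4% of coding genes. Only CycB, CycE, Cdk1, fzr and E2f1 were marked in all 3, 5 of 10 members, where 23.4% of coding genes were. CycD was missed in replicate 3, CycA in replicate 1 and stg in replicate 2. CycB3 was marked in replicate 3 alone and fzy in replicate 2 alone. At 12 of the 13 summits each replicate had an entry within 100 bp, and 92.0% of all IDR summits met this condition. The IDR list was made from the same replicates, so this share is not independent of it.

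**Figure D2:**
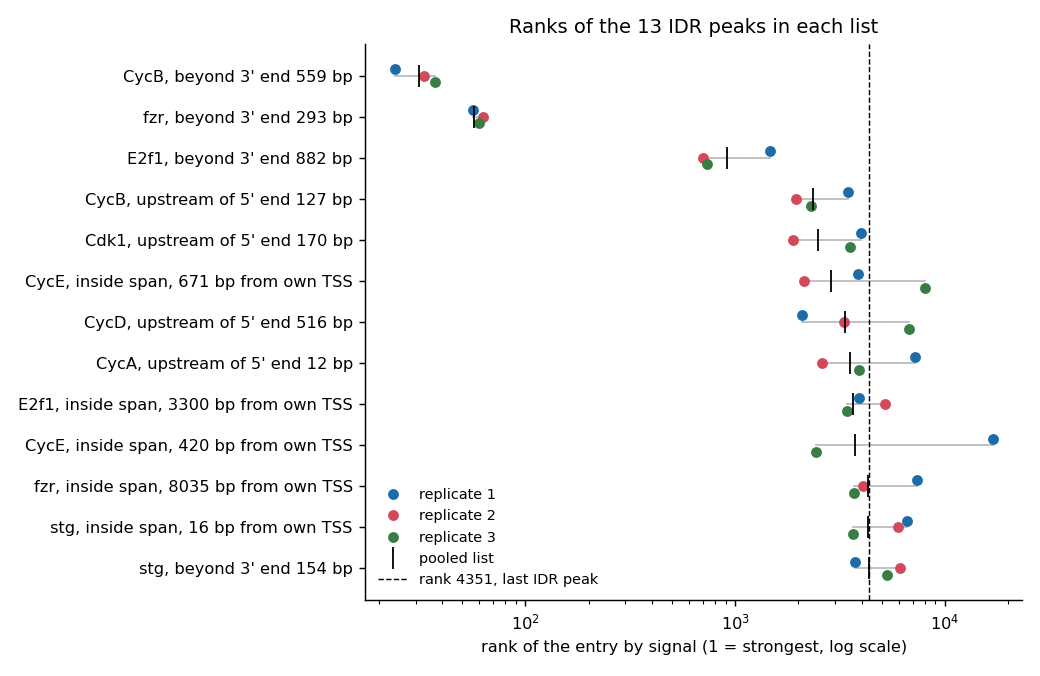
Rank by signal of the 13 IDR peaks in each replicate list (coloured points) and in the pooled list (black ticks), on a log axis where 1 is the strongest. The dashed line is rank 4351, the last IDR peak. The ranks at CycB and fzr beyond the 3' end lie between 24 and 63, and those of E2f1 beyond the 3' end between 702 and 1464, while the other 10 peaks lie between 1895 and 16837.

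Ordered by the mean log10 rank of the strongest entry in each replicate, the genes ran CycB (1.49 ± 0.10), fzr (1.78 ± 0.03), E2f1 (2.96 ± 0.18), CycE (3.43 ± 0.14), Cdk1 (3.47 ± 0.17), CycD (3.55 ± 0.26), stg (3.62 ± 0.10), CycA (3.62 ± 0.22), fzy (3.83 ± 0.26) and CycB3 (3.86 ± 0.30; SD, n = 3 each). The replicate ranks of CycB, fzr and E2f1 did not overlap with those of the next gene in this order. From CycE on, every neighbour in the order overlapped. Among all coding genes the strongest pooled entry put CycB and fzr at percentiles 99.7 and 99.4, E2f1 at 91.6 and the other 7 between 58.8 and 80.0. The places of CycB, fzr and E2f1 rest on entries beyond the 3' end, which only the extension of 1 kb takes in. Those of fzr and E2f1 were nearest the TSSs of CG3009 and InR. Inside the span the strongest pooled entry had a signal of 36.8 at CycB, 105 at fzr and 119 at E2f1.

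**Figure D3:**
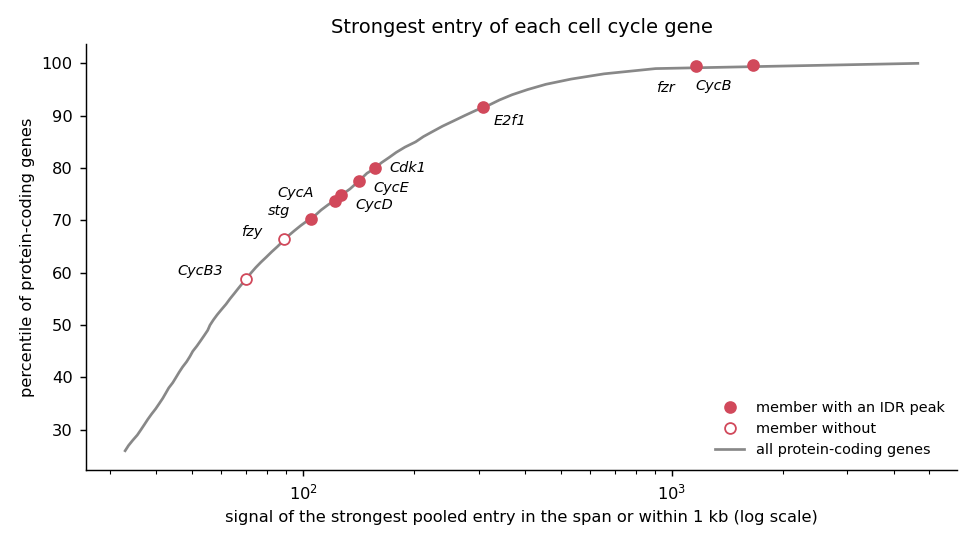
Signal of the strongest pooled entry in the span or within 1 kb (horizontal, log scale) and its percentile among protein-coding genes (vertical). Filled points are the 8 members with an IDR peak, open points fzy and CycB3, and the grey line is the distribution over all 13968 genes. CycB and fzr are at the right end, and 7 members lie between percentiles 58.8 and 80.0.

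The genes most like CycB, fzr and E2f1 in the 3 replicate ranks of their strongest peak were looked up among the other coding genes with a peak. CG6425 and amon share a peak with ranks of 31, 34 and 40, at a distance of 0.117 in log10 rank from CycB. The peak shared by eIF6 and ytr, with ranks of 60, 67 and 63, was 0.045 from that of fzr, and one shared by Ac13E and CG42300 was 0.025 from that of E2f1, with ranks of 1525, 726 and 719.

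Below the IDR threshold the 10 genes held another 37 entries of the pooled list, in which peaks and background are mixed. All 10 members had at least 1 pooled entry (100%), as had 75.0% of coding genes. Of these 37, 11 lay within 500 bp of some TSS, a class given before any other. Outside it 11 lay in coding sequence and 12 in introns. By the same classes none of the 13 IDR summits lay in coding sequence. Of the 37, 5 had an entry within 100 bp in all 3 replicates and 3 had one in no replicate. The same shares over all IDR summits and all weaker pooled entries are not given, so these counts describe no trait particular to the members.

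Motif matches at the 13 summits were searched up to 100 bp from the summit, on both strands. The CHR element, TTTGAA, is bound in mammals by the DREAM complex at cell cycle promoters. These were the places of its 6 matched summits: CycB and fzr beyond the 3' end, E2f1 in an intron, the stg promoter and both of CycE. The promoter summits of CycA, CycB and Cdk1 held no CHR. It was thus present at 46.2% of the 13 summits, where 28.6% of all IDR windows and 14.8% of windows at pooled entries below the threshold held it. CGATA, the core that the insulator protein BEAF-32 binds and that is also part of the DRE, was present at 6 (46.2%), against 33.2% and 20.8%. The full DRE was present at CycA alone (7.69%, against 4.80% and 1.13%). GGTCACAC (Ohler1), which the factor M1BP binds at housekeeping promoters, was present only at the CycB promoter (7.69%, against 2.80% and 1.22%). Of the 13 summits 7 lay within 500 bp of some TSS, as did 2390 of all IDR summits. Of those 2390, 41.9% held CGATA, 8.41% the DRE, 4.69% Ohler1 and 29.2% the CHR. GAGA, searched as GAGAG, was at 2 summits (15.4%, against 25.1% and 25.5%). The E2F site (TTTCCCGC and TTTCGCGC, and also TTTGCCGC and TTTGGCGC) was in 0 of 13 windows, while 3.54% of IDR windows and 4.47% of the weaker ones held it, and the same count of 0 was found for the Zelda site CAGGTAG (1.08% and 1.52%) and the Exd-Hox site TGATNNAT (12.2% and 9.21%). With 13 windows, a single window moves these shares by 7.69 points.

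**Figure D4:**
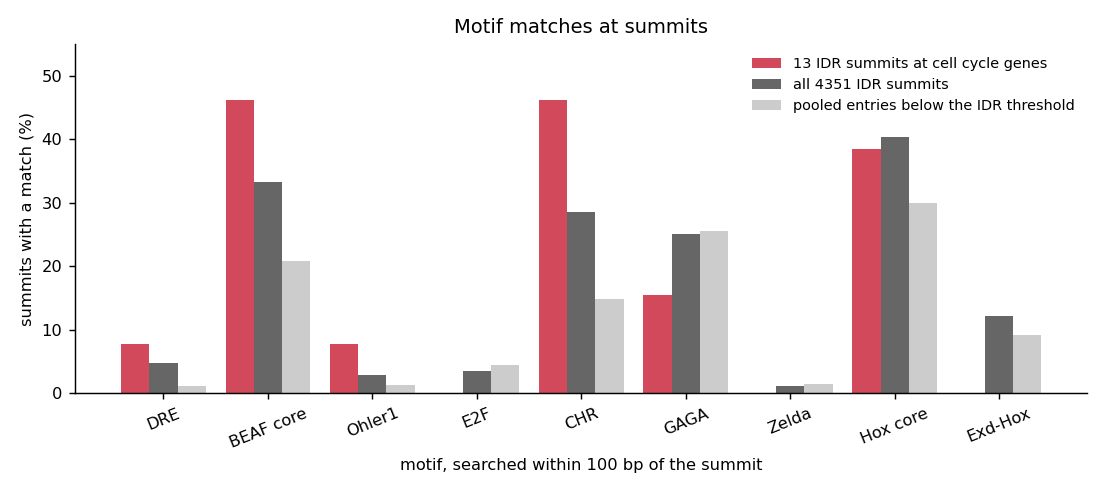
Percentage of summits with a motif match within 100 bp, at the 13 IDR summits of the cell cycle genes (red), at all 4351 IDR summits (dark grey) and at pooled entries below the IDR threshold (light grey). The red bars reach 46.2% for the CGATA core and the CHR, and are absent for E2F, Zelda and Exd-Hox.

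The Hox core, the short sequence that Antp and other homeodomain proteins recognise, was at 5 of the 13 summits (38.5%), where 40.3% of all IDR windows and 29.9% of the weaker windows held it. These 5 were summits of CycB (beyond its 3' end), CycE, Cdk1, stg and E2f1 (intronic). At Cdk1 the window held 4 of them, and 0.483% of IDR windows (21 of 4351) held as many, a count looked up after the sequence had been seen. The Cdk1 window was also the poorest in G and C of the 13, at 23.4%, where the median was 39.8% at the members and 38.3% at all IDR summits. Only 10 IDR windows had as little, and what the base composition contributes to the count of TAAT matches was not tested. At CycA the DRE was centred within 10 bp of the summit, as it was at 28 IDR summits (0.644%), also looked up afterwards.

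Beside the 80.0% of the 10 members, 46 of 102 other cell cycle genes had an IDR summit (45.1%, exact binomial interval 35.2 to 55.3%), and 30.0% of all coding genes did. The shares of their span classes would give 32.8 of the 102. This list was also chosen with earlier results of these data known, so its interval is no test either. By role the count was 7 of 10 for E2F, Rb and dREAM genes, 7 of 10 for checkpoint genes, 3 of 5 for the SCF ubiquitin ligase, 4 of 7 for mitotic kinases with the png complex, 4 of 9 for inhibitors, phosphatases and kinases of CDKs, 6 of 15 for the APC/C, 4 of 11 for cohesin, condensin and separase, 6 of 19 for DNA replication and 5 of 16 for other cyclins, CDKs and partners. The strongest were SkpA, an SCF subunit, with a signal of 753 and replicate ranks of 130, 141 and 162, Dp, the partner of E2F proteins, with 737 and ranks of 125, 151 and 185, and SMC2, a condensin subunit, with 600. They were followed by dpa, which encodes the helicase subunit Mcm4, with 474, APC7, an APC/C subunit, with 461 and CG8188, an APC/C ubiquitin-conjugating enzyme gene, with 450. The SkpA summit lay 985 bp upstream of the gene and nearest the TSS of Hmt4-20, and that in APC7 was nearest the TSS of pigs. The longest genes without a peak were vtd, a cohesin subunit gene with no pooled entry at all, CycG, the condensin gene Cap-G and the F-box gene ago. By the nearest TSS 28 of the 102 had a summit (27.5%, where 20.5% of coding genes did), and 39 had one within 500 bp of their own TSS (38.2%, where 20.8% of coding genes did).

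**Figure D5:**
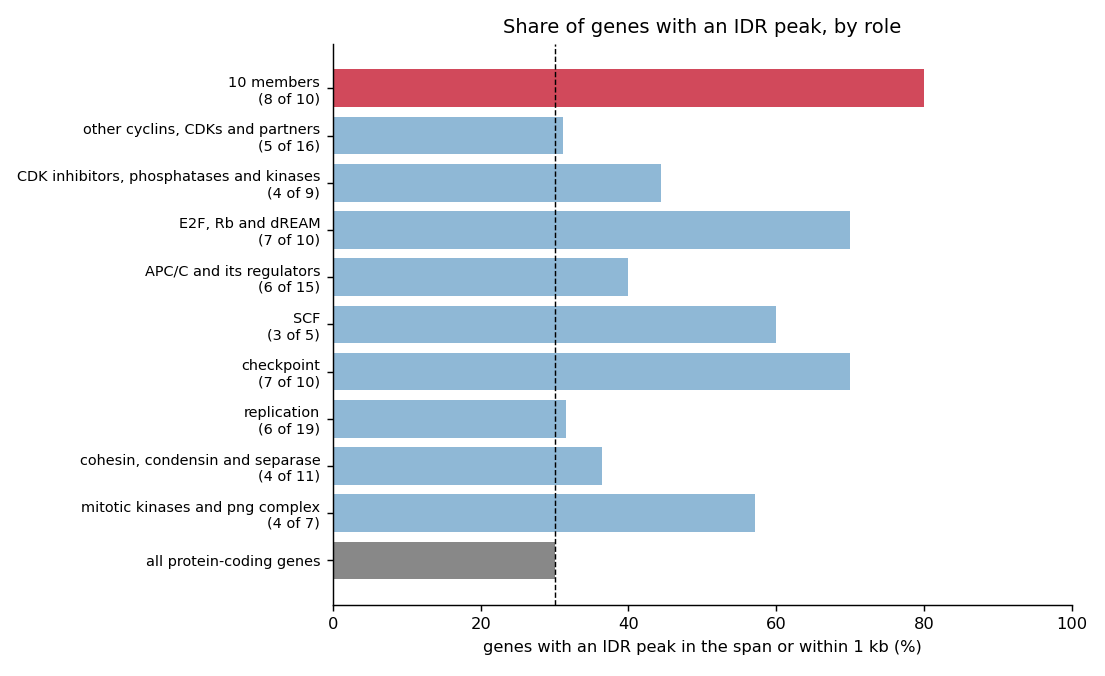
Percentage of genes with an IDR peak in the span or within 1 kb, for the 10 members (red), for 102 other cell cycle genes by role (blue) and for all protein-coding genes (grey, dashed line at 30.0%). The counts stand beside each role, and groups of 5 to 19 genes leave wide error. The members are at 80.0%, and the roles range from 31.2 to 70.0%.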

How the data were processed

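The data are narrowPeak lists in dm6 from 3 biological replicates of Antp-eGFP embryos. According to the submitters' file descriptions there is a list of 30000 entries (peaks and background) for every replicate, a pooled one of 30000, and an IDR-thresholded one of 4351, which holds the strongest 4351 pooled entries. For the aligner, the caller and the IDR threshold, nothing is stated: not given in the sources used here. Entries were ranked within a list by the deposited signal. The authors' −log10 q-values were only tabulated. These files hold no read counts, so depth is unknown.

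Summits were placed, 1-based, on the dm6 genome (release 6) and Ensembl release 115 gene models. Replicate entries were matched to a summit within 100 bp, and percentiles and 5 span classes are over 13968 coding genes. Intervals are exact (Clopper-Pearson, 95%) and cover counting error only. No test across genes was made. The counting steps were tested on simulated data. Python 3.11.15, numpy 2.4.6, pandas 2.3.3 and scipy 1.17.1 were used. Named are the 10 members, the genes nearest their summits and some genes beside the members. Also named are the 6 strongest and 4 longest unbound of the wider list. The 2 genes closest in replicate rank to each of the 3 strongest members are named too. In the wider list 6 symbols were updated, which made ald and Mps1 a single gene. Members, lists and motifs were chosen with earlier results of these data known. Alternatives were other span extensions, a stricter peak list, TSS distances, matching rules, windows and each replicate left out. Lists in dm3 were not used here.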

Additional observations from a re-analysis of the deposited data

How the results depend on the processing

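The counts rest on weak peaks and on the flank of 1 kb. In the strongest 2175 and in the strongest 1087 IDR peaks alike, 3 members were bound, with 3 summits, where 17.9% and 9.82% of coding genes were. These 3 summits, at CycB, fzr and E2f1, all lay beyond the 3' end, so they too rest on the flank. Of the members 1 was the nearest TSS (11.7% and 6.29% of coding genes) and 0 had a summit at their promoter (11.7% and 6.15%). The wider list gave 25 and 10 bound genes of 102 (24.5% and 9.80%), the second a share close to that of all coding genes. With no extension of the span 4 members were bound, with 5 summits, and 15 genes of the wider list (14.7%), where 11.8% of coding genes were. In every replicate 2 members were then bound, where 8.67% of coding genes were. Of the entries in each replicate, taking 2175 left 3 members bound in all 3 (14.2% of coding genes) and taking 8702 gave 8 (34.1%). Leaving out 1 replicate gave 6 members bound in both others, whichever was left out, where 25.1% to 25.6% of coding genes were. At GAGA the 2 summits became 0 and 4 with 50 and 200 bp searched on either side, and at the Hox core the 5 became 2 and 9. With 200 bp there was 1 summit with E2F and 2 with Exd-Hox, both 0 before. A wider window can only gain matches, and the shares over all IDR summits are not given at these widths. These counts therefore show only that the matches depend on the window. A span extension of 5 kb, peak midpoints, other TSS distances and other matching rules moved no count at the members or the wider list by over 1.5 times. With 5 kb 8 members and 65 genes of the wider list (63.7%) were bound, but the share of all coding genes rose to 48.7%. The mean replicate ranks of single weak summits are loose. The CycE summit at 15747281 had 4660, against 2985 without replicate 3, and the CycD summit had 4036, against 2687 without replicate 3. Matched by an overlap of 1 bp, that CycE summit had 2797. There replicate 3 was matched to the entry of the other CycE summit, at rank 2422 in place of 8012, so this value mixes the pair. No paired analysis was possible because there is only 1 group. The unknown depth and n = 3 limit what the ranks can separate.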
